A study of Mus musculus with 12 samples.

Results

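MLL-AF9 leukemia cells that had grown in Rag2-/- mice were compared with the same leukemia grown in wild-type (WT) mice, across every gene whose level averaged 1 TPM or more in the 8 libraries of these hosts. TPM is a transcript level corrected for gene length and scaled so that each library sums to 1000000. Of the 55401 genes in the table, 15000 passed this limit, and 28876 were listed at 0 in all 8 libraries. The cells carry the MLL-AF9 fusion oncogene together with GFP and came from 1 leukemia line that had been passed repeatedly through non-irradiated mice. They were injected intravenously into non-irradiated young adult female hosts, and GFP+ leukemia cells were collected for RNA-seq once disease was advanced. WT hosts were C57BL/6J mice. Rag2-/- hosts were C57BL/6J-Rag2em3Lutzy/J mice, which lack mature T and B cells and keep natural killer (NK) cells. Each host gave 4 libraries, which the labels number as biological replicates. The deleted gene belongs to the host, so the level of Rag2 in the leukemia cells checks nothing. As the oncogene, the line and the route were shared by both groups, the comparison asks how the RNA of one leukemia differs between these hosts. The paper reports slower disease and more numerous, more active NK cells in Rag2-/- mice. Lack of adaptive lymphocytes, NK cell state and time of growth therefore cannot be told apart here.

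MLL-AF9 arrests myeloid cells at the level of a granulocyte and monocyte progenitor. As normal neutrophil precursors mature, they first fill primary (azurophil) granules with myeloperoxidase and serine proteases, then secondary and tertiary granules with lactoferrin, cathelicidin and matrix metalloproteases. Alarmins, formyl peptide receptors and Toll-like receptors become abundant late in this sequence. Hoxa9, Meis1 and Pbx3 encode the transcription factors that maintain the leukemic progenitor state.

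Markers of such a leukemia were present in every library. Elane, neutrophil elastase, stood at 10016 to 11325 TPM in WT hosts, and Hoxa9 at 202 to 213 TPM in WT hosts and 196 to 234 TPM in Rag2-/- hosts. Ms4a1 and Cd3e, defining B-cell and T-cell markers, were listed at 0 in all 8 libraries, but most other markers on their lists were not. Of 20 B and plasma cell markers, 2 were at 0 throughout, and 10 to 15 were above 0 in each WT library and 8 to 13 in each Rag2-/- library. Of 16 T-cell markers, 2 were at 0 throughout, and 6 to 9 and 6 to 13 were above 0. From the spacing of low TPM values, the depth in units of 1000000 read pairs was estimated at 8.004 to 13.6 in WT libraries and 8.68 to 21.4 in Rag2-/- libraries, and 3 read pairs from a gene of 1 kb were worth 0.499 to 1.29 TPM. Correlations of log2(TPM + 1) over the genes tested were 0.966 to 0.977 within WT, 0.970 to 0.981 within Rag2-/- and 0.957 to 0.978 between the groups. The first principal component took 27.0% of the variance, with the 4 WT libraries on one side of 0 and the 4 Rag2-/- libraries on the other. Replicate 4 of the Rag2-/- group was the deepest library and lay nearest to WT in many of the genes below.

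In leukemia from Rag2-/- hosts, 240 genes were higher and 117 lower than in leukemia from WT hosts (limma on log2(TPM + 1), Benjamini-Hochberg adjusted p below 0.05 and a log2 fold change beyond 0.5). These calls are 1.60% and 0.780% of the 15000 genes tested. The groups did not overlap in 236 of the higher and 110 of the lower genes, whereas over all genes tested 10.2% were parted upward and 6.73% downward. The calls were selected on the same values, so their lack of overlap follows largely from the test and adds no separate support. The higher calls reached further, with 90 beyond a log2 fold change of 1 and 20 beyond 2, against 19 and 3 among the lower calls. The median log2 fold change over all genes tested was 0.02. The genes that rose were also expressed at a lower level in WT hosts (median 8.51 TPM) than those that fell (median 35.7 TPM). This order is partly set by the filter, which took the mean of both groups. A gene with a WT mean below 1 TPM could enter only through Rag2-/- hosts, and 24 of the 240 higher genes were of this kind. Among them are Fpr1, Chil1, Mt2, Clec4a1, Fn1 and Retnla, named below. Igkc and Mir7089, called lower, entered only through WT hosts. For such genes the filter and the test draw on the same high group, so the p-value is no separate support. Without a limit on the fold change, 619 genes were higher and 385 lower. Leaving out 1 library at a time kept 59 of the higher and 17 of the lower calls in all 8 fits. Every one of the 357 genes called kept its sign, but genes without overlap could not do otherwise, so this is no separate support. The fits without WT replicate 2, Rag2-/- replicate 2 or Rag2-/- replicate 3 called only 70, 75 and 77 genes higher and 26, 36 and 32 lower, the fit without WT replicate 3 called 109 and 44, and the fit without WT replicate 1 called 171 and 63.

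**Figure D1:**
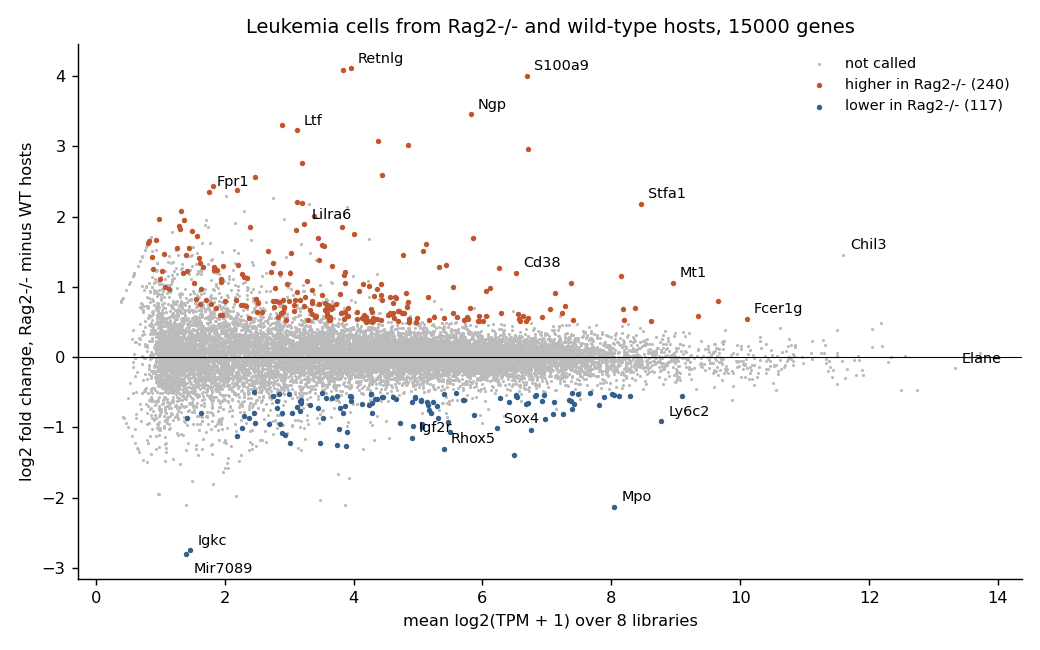
Each point is 1 of 15000 genes, with its mean log2(TPM + 1) over 8 libraries on the horizontal axis and its log2 fold change (Rag2-/- minus WT hosts) on the vertical axis. The 240 genes called higher reach a log2 fold change of 4.11 for Retnlg, and the 117 called lower include Mpo at -2.13.

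Many of the largest rises were in neutrophil genes of the later granules, while the primary granule genes fell or did not pass the test. Of 19 secondary and tertiary granule genes tested, 14 were called higher and none lower, with a median log2 fold change of 1.46. Of 9 primary granule genes tested, 2 were called lower and none higher, with a median of -0.15. In these bulk samples, fewer cells of a type and less RNA per cell cannot be told apart. With 1 library left out at a time, 5 to 16 of the secondary and tertiary granule genes were called, the fewest without WT replicate 2 or Rag2-/- replicate 2.

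Ltf, which encodes the iron-binding protein lactoferrin of secondary granules (chr9:111019271-111042767), measured 1.12, 1.38, 2.04 and 3.19 TPM in WT hosts and 49.1, 28.1, 26.5 and 11.5 TPM in Rag2-/- hosts. Every Rag2-/- library lay above every WT library, and replicate 4 was the lowest of its group. The groups differed by limma (log2 fold change 3.23 ± 0.38 (SE), adjusted p = 0.00772), and the means were 1.93 ± 0.921 TPM (SD, n = 4) in WT and 28.8 ± 15.5 TPM (SD, n = 4) in Rag2-/- hosts. Ngp, a cystatin-like secondary granule protein of neutrophil precursors (chr9:110419747-110423012), measured 15.5, 11.2, 19.7 and 19.4 TPM in WT hosts and 301, 205, 246 and 79.01 TPM in Rag2-/- hosts. Its lowest Rag2-/- library was again replicate 4, with no overlap between the groups (log2 fold change 3.46 ± 0.37 (SE), adjusted p = 0.0074). Camp, the cathelicidin antimicrobial peptide (chr9:109847379-109849617), measured 7.96, 3.92, 4.39 and 10.04 TPM in WT hosts and 96.3, 64.8, 70.9 and 27.4 TPM in Rag2-/- hosts. Its groups were also apart (log2 fold change 3.07 ± 0.39 (SE), adjusted p = 0.00799).

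The gelatinase and collagenase of the tertiary and secondary granules rose as well. Mmp9 was at 1.46, 0.672, 2.39 and 1.19 TPM in WT hosts and 27.9, 37.5, 28.1 and 8.01 TPM in Rag2-/- hosts (log2 fold change 3.31 ± 0.42 (SE), adjusted p = 0.00818). Mmp8 was at 3.20, 2.70, 1.74 and 2.70 TPM in WT hosts and 33.8, 35.5, 30.00 and 7.51 TPM in Rag2-/- hosts (log2 fold change 2.76 ± 0.43 (SE), adjusted p = 0.0153). In both genes the lowest Rag2-/- library was replicate 4, which still lay above the highest WT library. Retnlg, a resistin-like secreted protein of mature neutrophils (chr16:48872621-48874496), measured 1.45, 2.67, 2.59 and 4.99 TPM in WT hosts and 95.6, 90.02, 102 and 18.2 TPM in Rag2-/- hosts (log2 fold change 4.11 ± 0.52 (SE), adjusted p = 0.00799). Replicate 4 stood far below the other Rag2-/- libraries here, yet above all WT libraries. These 6 genes, together with S100a8 and S100a9, kept their call with each library left out.

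Smaller rises were called in Lcn2, the siderophore-binding lipocalin (1.15 ± 0.23 (SE)), Olfm4, a glycoprotein of a neutrophil subset (2.21 ± 0.39 (SE)), Chil1, a chitinase-like protein (1.67 ± 0.28 (SE)), Cd177, a neutrophil surface protein (1.06 ± 0.26 (SE)), and Wfdc21 (0.80 ± 0.16 (SE)), all on the log2 scale with adjusted p = 0.026, 0.0204, 0.0187, 0.0468 and 0.0249 by limma. Each of these 5 lost its call in at least 3 of the 8 fits without 1 library. Cybb, the catalytic subunit of the phagocyte oxidase, was the only one of 6 oxidase genes tested to be called (log2 fold change 0.78 ± 0.17 (SE), adjusted p = 0.0296), and lost its call in 5 of 8 such fits. Chil3, a chitinase-like protein of very high level, was at 2840.1, 1214, 1873 and 1859 TPM in WT hosts and 6401, 7512, 8732 and 1636 TPM in Rag2-/- hosts. Rag2-/- replicates 1 to 3 lay above WT, but replicate 4 lay inside the WT range, and the gene did not pass the test (log2 fold change 1.46 ± 0.49 (SE), adjusted p = 0.104). Lyz2, lysozyme, passed on its p but not on its size (log2 fold change 0.42 ± 0.09 (SE), adjusted p = 0.0302).

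Mpo, the myeloperoxidase of primary granules (chr11:87793581-87804413), went the other way. Its level was 537, 508, 593 and 574 TPM in WT hosts and 121, 102, 70.1 and 287 TPM in Rag2-/- hosts. All Rag2-/- libraries lay below WT, and replicate 4 was again the closest to WT (log2 fold change -2.13 ± 0.35 (SE), adjusted p = 0.0165). The call was lost without WT replicate 2 or Rag2-/- replicate 2. Prss57, a serine protease of the same granules, fell from 136, 119, 127 and 138 TPM to 79.4, 82.6, 73.2 and 96.2 TPM (log2 fold change -0.65 ± 0.08 (SE), adjusted p = 0.00818) and kept its call with each library left out.

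The 3 abundant serine proteases were steadier. Prtn3, proteinase 3, had 3307, 3314, 3352 and 3281 TPM in WT hosts and 2431, 2499, 2242 and 3035 TPM in Rag2-/- hosts, a difference below the limit on size (log2 fold change -0.39 ± 0.08 (SE), adjusted p = 0.0302). Elane had 11325, 10016, 11040.00 and 11104 TPM in WT hosts and 9241, 9408, 9348 and 11157 TPM in Rag2-/- hosts, with overlap between the groups (log2 fold change -0.15 ± 0.08 (SE), adjusted p = 0.235). Ctsg, cathepsin G, had a log2 fold change of 0.01 ± 0.07 (SE) (adjusted p = 0.924).

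**Figure D2:**
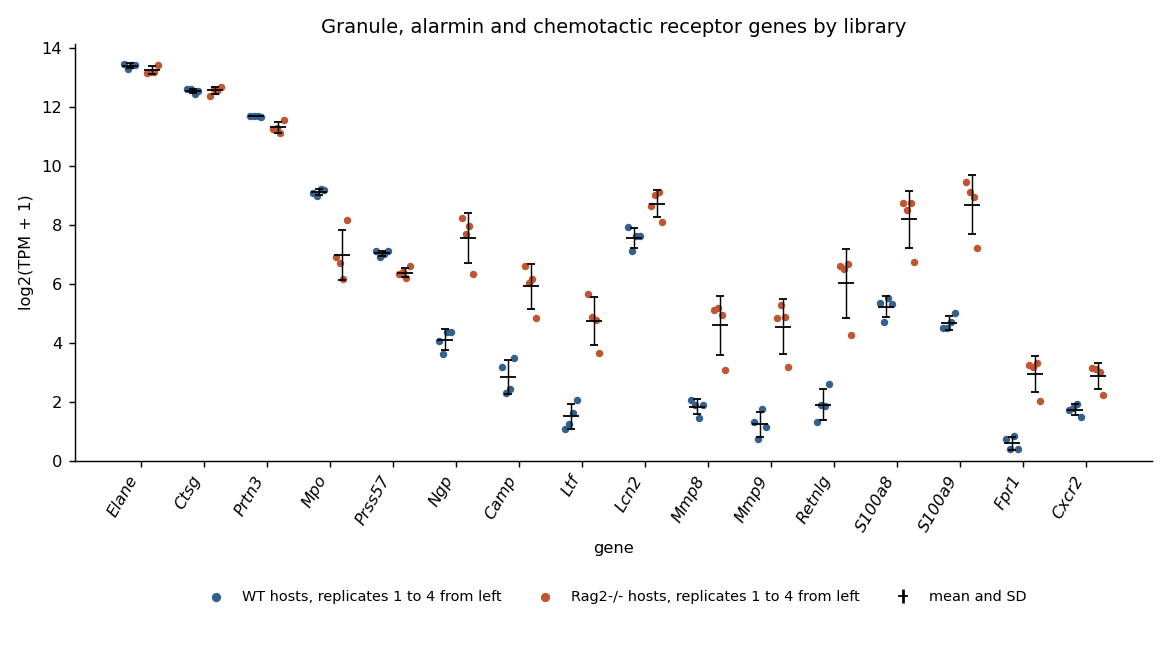
Points give log2(TPM + 1) of each library for primary granule genes (left), later granule genes, alarmins and chemotactic receptors (right), and bars give the mean and SD of 4 libraries. In Ngp, Camp, Ltf, Mmp8, Mmp9, Retnlg, S100a8, S100a9 and Fpr1 all Rag2-/- points lie above the WT points with replicate 4 lowest, while Mpo lies below.

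C/EBP factors drive the later granule genes in normal neutrophils, so their promoters were searched for the letters TTGCNNAA, a C/EBP motif, on both strands of the 250 bases before each annotated start. Promoter sequences were those of RefSeq on GRCm38.p6, the build to which the reads were aligned, and were found for 9554 of the symbols tested. Of 15 secondary and tertiary granule genes with a promoter, 5 held the motif (33.3%), against 7.62% of the promoters of all tested genes and 0 of 7 primary granule genes. Among the called genes, 20 of 160 promoters of higher genes (12.5%) and 6 of 62 of lower genes (9.68%) held it. The starts are those of RefSeq and can lie inside the gene's outer coordinates given here. These shares describe the letters in this window and were not tested. The 200 bases before the start of 3 genes that rose are shown because their matches fall in this stretch. Capitals mark the motif.
Ngp (chr9:110419608-110419807, plus strand): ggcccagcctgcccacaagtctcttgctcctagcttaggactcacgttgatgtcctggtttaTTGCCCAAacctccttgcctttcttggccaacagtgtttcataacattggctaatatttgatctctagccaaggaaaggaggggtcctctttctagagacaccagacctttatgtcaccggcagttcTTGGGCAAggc
Ltf (chr9:111019092-111019291, plus strand): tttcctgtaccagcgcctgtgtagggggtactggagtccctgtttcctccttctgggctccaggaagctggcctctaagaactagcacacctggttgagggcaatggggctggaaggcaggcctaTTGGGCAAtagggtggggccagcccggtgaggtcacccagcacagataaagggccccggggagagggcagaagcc
Mmp8 (chr9:7558229-7558428, plus strand): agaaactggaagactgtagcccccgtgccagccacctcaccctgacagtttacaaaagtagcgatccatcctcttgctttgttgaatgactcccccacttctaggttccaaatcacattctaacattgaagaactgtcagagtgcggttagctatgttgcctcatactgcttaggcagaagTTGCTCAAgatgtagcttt
In Ngp the matches began at -138 and -11 from the start, in Ltf at -75 and in Mmp8 at -19. Camp and S100a8, which rose with them, held none in their 250 bases.

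The alarmins S100a8 and S100a9, partner subunits of calprotectin, rose together from adjacent genes (chr3:90668978-90670035 and chr3:90692632-90695721). S100a9 was at 21.9, 21.6, 24.99 and 31.2 TPM in WT hosts and 701, 554, 494 and 148 TPM in Rag2-/- hosts. S100a8 was at 39.8, 24.8, 44.4 and 38.99 TPM in WT hosts and 425, 359.7, 429 and 107 TPM in Rag2-/- hosts. Their log2 fold changes were 4.00 ± 0.41 (SE) (adjusted p = 0.0074) and 2.97 ± 0.41 (SE) (adjusted p = 0.0114) by limma, with no overlap in either gene. The other 5 members of the S100 list that were tested were not called. S100a6 was at 5.83, 2.90, 5.52 and 1.86 TPM in WT hosts and 13.2, 25.8, 15.1 and 3.16 TPM in Rag2-/- hosts, with replicate 4 inside the WT range (log2 fold change 1.42 ± 0.53 (SE), adjusted p = 0.13), and S100a11 moved by 0.23 ± 0.07 (SE) on the log2 scale (adjusted p = 0.0943).

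A run of stefin genes, which encode inhibitors of cathepsins, lies together on chromosome 16. The outer bounds of 8 genes of this run, 36156811 and 36455392, enclosed 10 genes tested. All 10 had a positive log2 fold change, and 6 were called higher. The 8 genes that set these bounds include the 6 called, so the count is no independent result. With 1 library left out, 3 to 8 genes of the list of stefins and cystatins were called, the fewest with replicate 2 or 3 of either host left out. Stfa1, the most abundant, was at 263, 102, 176 and 151 TPM in WT hosts and 621, 1053, 1079 and 441 TPM in Rag2-/- hosts (log2 fold change 2.18 ± 0.34 (SE), adjusted p = 0.0153). Here replicates 2 and 3 of the Rag2-/- group were the highest and replicate 4 the lowest, with all 4 above WT. Stfa2l1 was at 3.60, 2.84, 0 and 7.06 TPM in WT hosts and 45.7, 91.8, 89.2 and 29.6 TPM in Rag2-/- hosts (log2 fold change 4.09 ± 0.61 (SE), adjusted p = 0.0139). BC100530 was at 17.5, 6.02, 10.04 and 6.15 TPM in WT hosts and 66.3, 126, 126 and 39.2 TPM in Rag2-/- hosts (log2 fold change 3.01 ± 0.42 (SE), adjusted p = 0.0114). Gm5483, Gm5416 and BC117090 had log2 fold changes of 2.59, 2.57 and 1.42 and adjusted p = 0.0187, 0.0377 and 0.0314, and they lost their call in 4, 5 and 6 of the 8 fits without 1 library. Stfa2 and Stfa3 had log2 fold changes of 2.08 and 2.13 and did not pass (adjusted p = 0.101 and 0.0672). These genes are near copies of one another, and how reads were split among them is uncertain. Cstb and Cst3, stefin and cystatin genes elsewhere in the genome, had log2 fold changes of 0.05 and -0.12 and were not called.

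Receptors by which neutrophils and monocytes find and sense their targets rose in part. Of 14 chemotactic receptor genes tested, 4 were called higher and none lower (median log2 fold change 0.37). Fpr1, the high-affinity formyl peptide receptor (chr17:17876471-17883940), was at 0.651, 0.299, 0.773 and 0.319 TPM in WT hosts and 8.49, 7.95, 8.95 and 3.08 TPM in Rag2-/- hosts. The WT libraries held at most 4 recovered read pairs of this gene and the Rag2-/- libraries at least 24.5. The groups were apart (log2 fold change 2.36 ± 0.30 (SE), adjusted p = 0.00799), but Fpr1 passed the filter on level only through Rag2-/- hosts. Fpr2, its neighbour with a wider range of ligands, was at 2.83, 2.14, 3.85 and 4.73 TPM in WT hosts and 22.9, 27.4, 22.2 and 8.47 TPM in Rag2-/- hosts (log2 fold change 2.20 ± 0.34 (SE), adjusted p = 0.0149). Cxcr2, the receptor for neutrophil-attracting chemokines, was at 2.26, 2.41, 2.81 and 1.80 TPM in WT hosts and 7.77, 7.62, 6.97 and 3.68 TPM in Rag2-/- hosts (log2 fold change 1.14 ± 0.22 (SE), adjusted p = 0.0236), and Ptafr, the receptor for platelet-activating factor, at 28.4, 21.7, 26.4 and 24.2 TPM in WT hosts and 34.3, 39.5, 39.5 and 37.1 TPM in Rag2-/- hosts (log2 fold change 0.56 ± 0.09 (SE), adjusted p = 0.0153). Both were apart between the groups. Ptafr lost its call without WT replicate 2, and Cxcr2 in 5 of 8 fits without 1 library. Over these fits, 2 to 5 of the chemotactic receptor genes were called, the fewest without WT replicate 2. Ccr1 and Cxcr4 were higher by 0.43 ± 0.06 (SE) and 0.30 ± 0.07 (SE) on the log2 scale, with adjusted p = 0.0113 and 0.0461 but below the limit on size, and Ccr2 was level at -0.01. Alox5, which makes leukotrienes from arachidonic acid, was at 18.1, 12.98, 15.4 and 15.96 TPM in WT hosts and 35.2, 61.3, 58.8 and 29.6 TPM in Rag2-/- hosts (log2 fold change 1.45 ± 0.23 (SE), adjusted p = 0.0153), and kept its call with each library left out. It was the only one of 9 lipid mediator genes called.

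Of 25 pattern receptor genes tested, 6 were called higher and none lower (median 0.21), and 2 to 7 were called with 1 library left out, the fewest with replicate 2 of either host or Rag2-/- replicate 3 left out. The 6 were Tlr8 and Tlr13, endosomal sensors of RNA, and the C-type lectins Clec4a1, Clec4a2, Clec4a3 and Clec5a. Clec4a3 was at 3.74, 2.84, 2.70 and 2.07 TPM in WT hosts and 10.4, 9.35, 12.01 and 7.71 TPM in Rag2-/- hosts (log2 fold change 1.51 ± 0.17 (SE), adjusted p = 0.00756). Clec4a1 was at 0, 0.254, 0.985 and 0.543 TPM in WT hosts and 2.32, 3.33, 4.20 and 2.88 TPM in Rag2-/- hosts (log2 fold change 1.56 ± 0.27 (SE), adjusted p = 0.0192). Both genes had non-overlapping groups, and Rag2-/- replicate 3 was the highest in each. Tlr13 (0.59 ± 0.07 (SE), adjusted p = 0.00772) kept its call with each library left out, while Tlr8 (0.79 ± 0.16 (SE), adjusted p = 0.026) lost it in 5 of 8 fits, Clec4a2 and Clec5a in 4 each and Clec4a1 in 3. Tlr2, the lipoprotein sensor, was at 40.9, 37.4, 39.2 and 40.4 TPM in WT hosts and 47.96, 60.2, 64.3 and 51.7 TPM in Rag2-/- hosts, just under the limit on size (log2 fold change 0.49 ± 0.09 (SE), adjusted p = 0.0215).

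The immunoglobulin-like paired receptors, inhibitory and activating surface proteins of myeloid cells that bind MHC class I and other ligands, rose in part as well. Of 28 genes tested, 12 were called higher and none lower, 4 had a negative value, with a median log2 fold change of 0.45, and 5 to 12 were called with 1 library left out. Many lie together on chromosome 7. Between 3486500 and 4282645, 23 genes were tested, 17 had a positive log2 fold change (median 0.24) and 9 were called higher. The 9 called are the members named below, which also set these bounds, so the count is no independent result. Pirb, the inhibitory receptor of the cluster, was at 24.4, 21.9, 26.2 and 26.7 TPM in WT hosts and 50.3, 75.01, 88.7 and 43.4 TPM in Rag2-/- hosts (log2 fold change 1.29 ± 0.20 (SE), adjusted p = 0.0154). Lilra6, an activating member, was at 4.88, 2.79, 4.40 and 3.67 TPM in WT hosts and 17.9, 17.04, 26.5 and 10.5 TPM in Rag2-/- hosts (log2 fold change 1.90 ± 0.25 (SE), adjusted p = 0.00881). Pira2, another activating member, was at 6.41, 2.75, 3.66 and 3.36 TPM in WT hosts and 12.6, 15.3, 15.7 and 8.38 TPM in Rag2-/- hosts (log2 fold change 1.49 ± 0.25 (SE), adjusted p = 0.0171). In all 3 genes the groups did not overlap and replicate 4 was the lowest Rag2-/- library. Pirb lost its call without WT replicate 2, and Pira2 in 3 of 8 fits. Tarm1, an activating receptor of the same region, was at 4.07, 2.78, 6.25 and 4.40 TPM in WT hosts and 18.2, 22.2, 29.7 and 13.4 TPM in Rag2-/- hosts (log2 fold change 2.01 ± 0.25 (SE), adjusted p = 0.00799). The predicted members Gm14548, Gm15448, Gm15922, Gm15925 and Gm15931, named after their values were seen, had log2 fold changes of 1.86, 1.60, 1.21, 1.58 and 1.85. Of these, Gm14548 lost its call in 2 and Gm15922 in 7 of 8 fits without 1 library. Gm15925 and Gm15931 are annotated as pseudogenes. The cluster's genes are close copies, so the share of reads given to each is uncertain.

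The likeness of these genes extends to their promoters. The letters GAGGAAGT, an ETS motif of the kind bound by PU.1, a master factor of myeloid cells, were searched on both strands of the same 250 bases. Of 160 promoters of higher genes, 22 held it (13.8%), against 2 of 62 of lower genes (3.23%) and 2.79% of the promoters of all tested genes. Of the 22, 5 belong to the cluster and share one stretch of sequence, so they are not independent, and the shares were not tested. The motif was also in 4 of 7 primary granule promoters, among them Elane and Prtn3, which were not called. The 200 bases before the start of the 5 paired receptor genes are shown with the motif in capitals, to let the common stretch be seen.
Pirb (chr7:3720383-3720582, minus strand): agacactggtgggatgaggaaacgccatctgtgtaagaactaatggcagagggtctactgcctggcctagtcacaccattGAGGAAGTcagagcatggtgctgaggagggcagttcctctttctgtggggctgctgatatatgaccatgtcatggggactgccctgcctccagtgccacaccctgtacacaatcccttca
Gm15448 (chr7:3825761-3825960, minus strand): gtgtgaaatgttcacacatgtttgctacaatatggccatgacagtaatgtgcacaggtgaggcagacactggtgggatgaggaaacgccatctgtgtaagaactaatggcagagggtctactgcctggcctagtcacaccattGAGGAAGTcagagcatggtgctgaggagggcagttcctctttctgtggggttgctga
Pira2 (chr7:3845052-3845251, minus strand): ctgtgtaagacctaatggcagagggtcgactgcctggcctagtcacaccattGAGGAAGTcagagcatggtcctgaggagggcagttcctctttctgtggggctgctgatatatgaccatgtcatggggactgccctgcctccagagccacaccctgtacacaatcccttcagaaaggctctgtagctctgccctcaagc
Gm14548 (chr7:3898142-3898341, minus strand): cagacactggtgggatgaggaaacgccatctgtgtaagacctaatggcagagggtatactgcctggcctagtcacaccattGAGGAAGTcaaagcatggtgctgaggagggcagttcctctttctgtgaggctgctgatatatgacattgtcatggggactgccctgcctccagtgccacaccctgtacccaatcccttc
Lilra6 (chr7:3915502-3915701, minus strand): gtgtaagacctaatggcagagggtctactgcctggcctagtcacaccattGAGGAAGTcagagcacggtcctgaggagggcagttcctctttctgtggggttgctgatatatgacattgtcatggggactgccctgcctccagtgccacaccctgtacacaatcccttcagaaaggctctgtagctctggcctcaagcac
The motif began at -120 in Pirb, -57 in Gm15448, -148 in Pira2, -119 in Gm14548 and -150 in Lilra6. The letters around it are nearly the same in all 5, shifted with the annotated start.

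Outside this cluster, Cd300lf and Cd300ld, an inhibitory and an activating receptor for lipids, rose by 1.04 ± 0.15 (SE) (adjusted p = 0.0139) and 0.72 ± 0.10 (SE) (adjusted p = 0.00922) on the log2 scale. Lilrb4a, an inhibitory receptor, and Lilr4b, a near copy of it, were higher by 0.87 ± 0.18 (SE) (adjusted p = 0.0296) and 1.04 ± 0.18 (SE) (adjusted p = 0.0203), and both calls were lost in at least 4 of 8 fits without 1 library. Cd33, an inhibitory sialic acid receptor and a marker of acute myeloid leukemia, was at 559, 469, 513 and 582 TPM in WT hosts and 669, 807, 873 and 853 TPM in Rag2-/- hosts (log2 fold change 0.59 ± 0.09 (SE), adjusted p = 0.0161). Fcer1g, the signalling chain shared by the activating receptors, was at 858, 869, 906 and 993 TPM in WT hosts and 1113, 1328, 1429 and 1458 TPM in Rag2-/- hosts (log2 fold change 0.55 ± 0.09 (SE), adjusted p = 0.0155). Both are among the most abundant genes called, and every Rag2-/- library lay above every WT library in both.

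**Figure D3:**
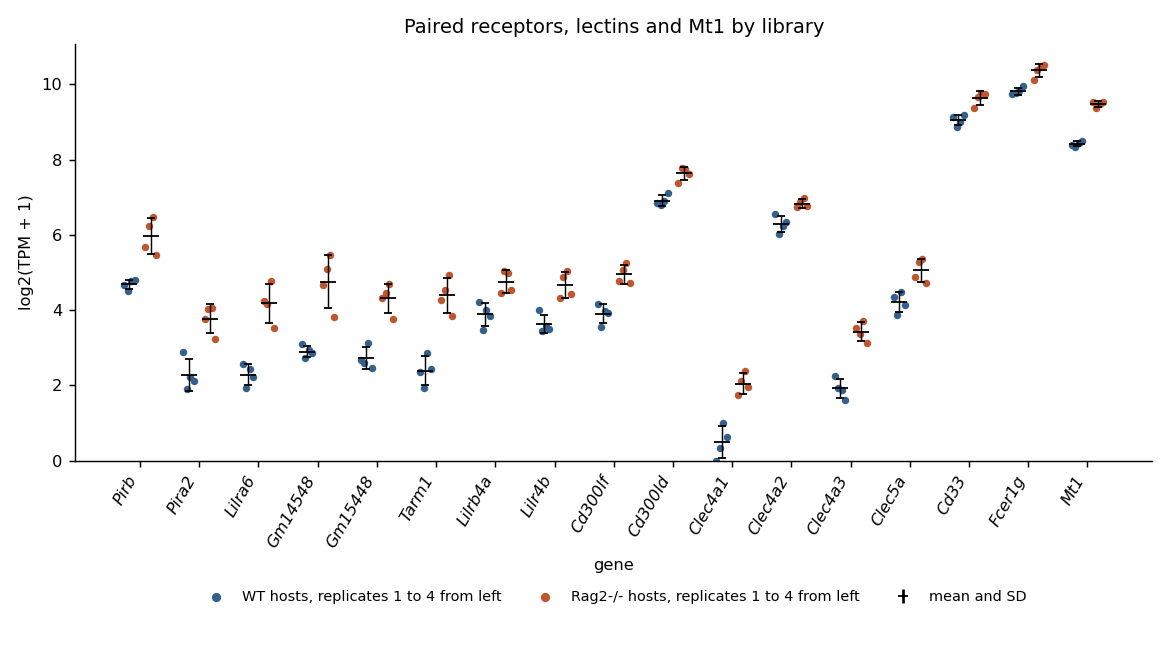
Points give log2(TPM + 1) of each library for paired receptors, lectins, Cd33, Fcer1g and Mt1, with the mean and SD of 4 libraries. The groups are apart in each of the 17 genes, and the Mt1 points of each host lie close together.

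Mt1, a metallothionein that binds zinc and copper (chr8:94179082-94180327), had the smallest SE of the called genes with a log2 fold change beyond 1. It was at 335, 325, 345 and 364 TPM in WT hosts and 745, 657, 719 and 735 TPM in Rag2-/- hosts. The means were 342 ± 16.4 TPM (SD, n = 4) and 714 ± 39.3 TPM (SD, n = 4), and the log2 fold change 1.06 ± 0.05 (SE), adjusted p = 8.2e-05 by limma. Here replicate 4 lay with its group, unlike in the granule genes. Mt2, its neighbour, was at 0, 0, 0.218 and 1.44 TPM in WT hosts and 6.99, 5.61, 2.43 and 1.56 TPM in Rag2-/- hosts, with 0 to 2 recovered read pairs in WT libraries and 3.5 to 20.5 in Rag2-/- libraries (log2 fold change 1.82 ± 0.43 (SE), adjusted p = 0.041), and its call was lost in 6 of 8 fits without 1 library. Slc30a1, a zinc exporter, was at 10.9, 10.96, 13.4 and 13.3 TPM in WT hosts and 14.4, 14.2, 19.6 and 17.7 TPM in Rag2-/- hosts (log2 fold change 0.40 ± 0.12 (SE), adjusted p = 0.0793). Mtf1, the zinc-responsive transcription factor, was level (-0.01).

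Adhesion and matrix genes of mature myeloid cells rose in 5 of 22 tested, with none lower. Tgfbi, a secreted adhesion protein, was at 57.9, 38.3, 54.7 and 45.7 TPM in WT hosts and 106, 134, 162 and 84.5 TPM in Rag2-/- hosts (log2 fold change 1.27 ± 0.20 (SE), adjusted p = 0.0153). Anxa1, the anti-inflammatory ligand of the formyl peptide receptors, was at 128, 81.1, 102 and 95.4 TPM in WT hosts and 184, 204, 214 and 161 TPM in Rag2-/- hosts (log2 fold change 0.91 ± 0.14 (SE), adjusted p = 0.0139). Vim, the intermediate filament vimentin, was at 288, 241, 264 and 238 TPM in WT hosts and 402, 409.7, 487 and 384 TPM in Rag2-/- hosts (log2 fold change 0.70 ± 0.08 (SE), adjusted p = 0.00772). These 3 kept their call with each library left out and had no overlap. Fn1, fibronectin, was at 0.277, 0.288, 0.460 and 0.217 TPM in WT hosts and 7.19, 4.34, 5.61 and 1.29 TPM in Rag2-/- hosts (log2 fold change 1.96 ± 0.37 (SE), adjusted p = 0.0232), and Vcan, versican, at 10.2, 10.9, 12.3 and 11.5 TPM in WT hosts and 16.6, 16.8, 22.7 and 14.1 TPM in Rag2-/- hosts (log2 fold change 0.58 ± 0.13 (SE), adjusted p = 0.0359). Fn1 lost its call in 4 and Vcan in 7 of 8 fits without 1 library, and 3 to 5 of the adhesion genes were called over these fits, the fewest with replicate 2 or 3 of either host left out. Itgam, the CD11b integrin chain of mature myeloid cells, was higher by 0.36 ± 0.05 (SE) on the log2 scale, below the limit on size (adjusted p = 0.0139).

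Other surface and signalling genes rose singly. Cd38, an NAD-consuming ectoenzyme, was at 51.8, 62.7, 63.3 and 60.4 TPM in WT hosts and 118, 149, 203 and 103 TPM in Rag2-/- hosts (log2 fold change 1.20 ± 0.18 (SE), adjusted p = 0.0146). Replicates 2 and 3 of the Rag2-/- group were highest, and all 4 lay above WT. Osmr, the oncostatin M receptor, was at 5.87, 6.05, 6.79 and 6.47 TPM in WT hosts and 10.1, 11.4, 12.2 and 10.8 TPM in Rag2-/- hosts (log2 fold change 0.73 ± 0.10 (SE), adjusted p = 0.00922), Il18rap, the accessory chain of the IL-18 receptor, at 20.1, 15.1, 19.8 and 17.2 TPM in WT hosts and 30.9, 35.5, 38.3 and 28.3 TPM in Rag2-/- hosts (log2 fold change 0.85 ± 0.12 (SE), adjusted p = 0.0114), and Csf2rb2, the IL-3 receptor chain, at 55.6, 49.2, 54.6 and 51.02 TPM in WT hosts and 68.3, 86.5, 84.1 and 66.6 TPM in Rag2-/- hosts (log2 fold change 0.52 ± 0.09 (SE), adjusted p = 0.0204). Osmr and Csf2rb2 were the only 2 of 34 cytokine signalling genes called, and Csf2rb2 lost its call in 3 of 8 fits without 1 library. Samsn1, a cytoplasmic adaptor of immune cells, and Degs1, which completes ceramide synthesis, were higher by 0.54 ± 0.05 (SE) (adjusted p = 0.00348) and 0.63 ± 0.07 (SE) (adjusted p = 0.0074). Zmat3, a p53 target, was at 4.03, 4.84, 4.29 and 3.86 TPM in WT hosts and 9.49, 8.31, 9.01 and 6.24 TPM in Rag2-/- hosts and was the only one of 22 BCL-2 and p53 genes called (log2 fold change 0.81 ± 0.14 (SE), adjusted p = 0.0204), a call lost in 3 of 8 such fits. The further p53 targets Ccng1 and Trp53inp1 differed by 0.37 and 0.36 on the log2 scale with adjusted p = 0.0139 and 0.0204, below the limit on size. Of the 22 BCL-2 and p53 genes tested, 12 had a positive and 10 a negative log2 fold change (median 0.04).

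Some lists held few calls or none, with most values of one sign. Over all genes tested, 54.5% of log2 fold changes were above 0. Of 23 cholesterol synthesis genes, none was called, 20 had a positive log2 fold change, and the median was 0.22. Idi1 was at 21.1, 21.7, 25.4 and 22.9 TPM in WT hosts and 35.2, 30.6, 29.2 and 34.5 TPM in Rag2-/- hosts (log2 fold change 0.49 ± 0.08 (SE), adjusted p = 0.0193) and Sqle, which makes squalene epoxide, was higher by 0.35 ± 0.07 (SE) (adjusted p = 0.0254), with no overlap in either. Of 22 MHC class I genes on the list, none was called and 19 had a negative value (median -0.27), and of 53 interferon response genes on the list, 1 was called higher, 1 lower and 45 had a negative value (median -0.18). The called ones were Ifitm6 (log2 fold change 1.51 ± 0.27 (SE), adjusted p = 0.0209), a member of the membrane-restriction family abundant in neutrophils, and Isg15, a ubiquitin-like modifier (log2 fold change -0.88 ± 0.22 (SE), adjusted p = 0.0455), and they lost their call in 4 and 7 of 8 fits without 1 library. In both lists, the mean log2(TPM + 1) of the tested genes overlapped between the groups. For MHC class I it was 7.28 to 7.53 in WT libraries and 6.97 to 7.40 in Rag2-/- libraries. For interferon response it was 5.49 to 5.84 in WT libraries and 5.32 to 5.82 in Rag2-/- libraries. Outside these lists, the MHC class I gene H2-Q10 was called higher, a call lost in 7 of 8 fits without 1 library. Ifi27, an interferon-induced gene also outside them, was called lower and lost its call in 2. Neither the 38 cell cycle genes (median -0.01) nor the 16 NF-kB genes (median 0.07) held a call. All these medians stand beside 0.02 over all genes tested.

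**Figure D4:**
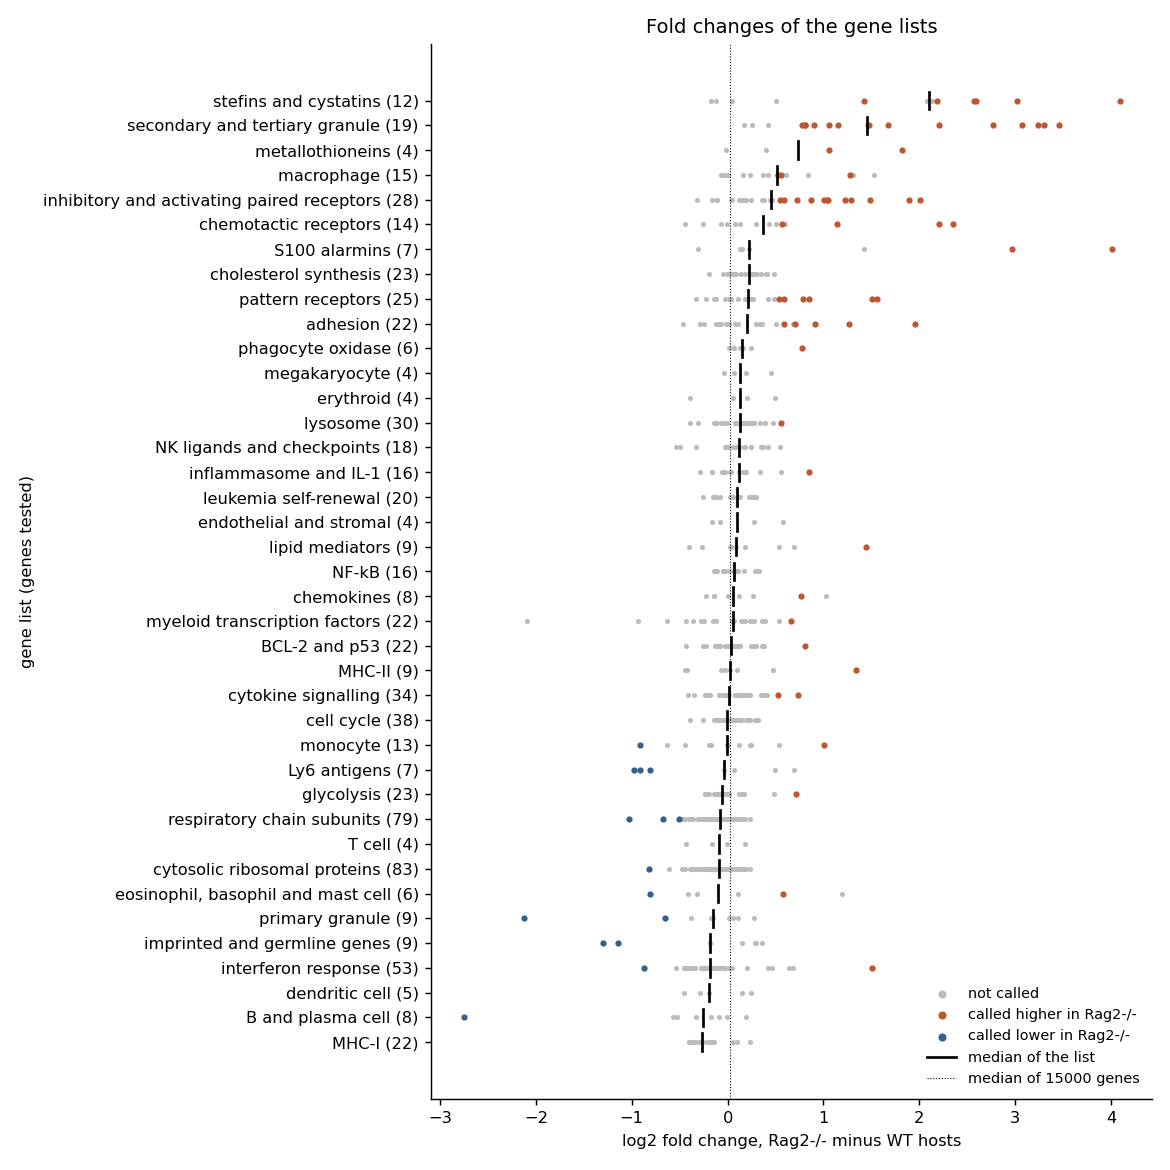
Each row is a gene list with at least 4 genes tested, sorted by its median, and each point is the log2 fold change (Rag2-/- minus WT hosts) of 1 gene. Stefins and cystatins (median 2.10) and secondary and tertiary granule genes (1.46) stand at the top, and MHC-I (-0.27) at the bottom.

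Among the genes that fell were a lysosomal sorting receptor and transcription factors. Igf2r, the mannose 6-phosphate receptor that delivers enzymes to lysosomes, was at 38.8, 44.5, 42.1 and 49.2 TPM in WT hosts and 16.7, 15.7, 21.6 and 23.5 TPM in Rag2-/- hosts (log2 fold change -1.15 ± 0.13 (SE), adjusted p = 0.0074). Rhox5, a homeobox gene of the X chromosome, was at 66.03, 72.03, 74.8 and 50.7 TPM in WT hosts and 25.8, 21.03, 23.6 and 34.96 TPM in Rag2-/- hosts (log2 fold change -1.30 ± 0.16 (SE), adjusted p = 0.00799). The groups were apart in both, and both kept their call with each library left out. Sox4, a transcription factor of blood progenitors that can drive leukemia, was at 89.8, 119, 100.5 and 112 TPM in WT hosts and 58.2, 44.9, 35.4 and 75.4 TPM in Rag2-/- hosts (log2 fold change -1.01 ± 0.20 (SE), adjusted p = 0.0257). Replicate 4 was the nearest to WT, and the call was lost in 5 of 8 fits without 1 library.

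Of 7 Ly6 surface antigens tested, 3 fell. Ly6a, the stem cell antigen Sca-1, was at 26.8, 50.3, 40.8 and 53.5 TPM in WT hosts and 16.9, 20.1, 21.5 and 24.8 TPM in Rag2-/- hosts (log2 fold change -0.97 ± 0.20 (SE), adjusted p = 0.0291). Ly6c2, a marker of inflammatory monocytes, was at 633, 514, 642 and 614 TPM in WT hosts and 223, 267, 356 and 482 TPM in Rag2-/- hosts (log2 fold change -0.91 ± 0.21 (SE), adjusted p = 0.0358). Ly6k was at 180.4, 229.5, 181 and 209.9 TPM in WT hosts and 126, 124, 85.3 and 125 TPM in Rag2-/- hosts (log2 fold change -0.81 ± 0.13 (SE), adjusted p = 0.017). The groups did not overlap in these 3 genes, and the calls of Ly6a and Ly6c2 were each lost in 6 of 8 fits without 1 library and that of Ly6k without WT replicate 2, when none of the list was called. Of the other 12 monocyte genes, Treml4 was called higher, a call lost in all 8 fits, and Ccr2 and Csf1r were level at -0.01 and -0.00. With Ly6c2 included, 8 of the 13 monocyte genes tested had a negative and 5 a positive log2 fold change. The groups were parted downward in 3, Ly6c2 among them, and upward in 1, against 6.73% and 10.2% of all genes tested.

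Gpc1, a heparan sulfate proteoglycan, fell from 108, 96.2, 113 and 104 TPM to 58.5, 63.8, 69.1 and 80.3 TPM (log2 fold change -0.63 ± 0.09 (SE), adjusted p = 0.0139), and Taf15, an RNA-binding protein, from 195, 235, 195 and 194 TPM to 139.6, 134, 118 and 137 TPM (log2 fold change -0.63 ± 0.08 (SE), adjusted p = 0.00772). Both kept their call with each library left out. Hdc, which makes histamine, was at 154, 187, 176 and 204 TPM in WT hosts and 91.1, 112, 83.98 and 127 TPM in Rag2-/- hosts (log2 fold change -0.81 ± 0.13 (SE), adjusted p = 0.0165), while Mcpt8, a basophil protease, rose (log2 fold change 0.58 ± 0.11 (SE), adjusted p = 0.0249). Hnf4a, a nuclear receptor best known from liver, had 204, 209, 188 and 202 TPM in WT hosts and 148, 120.4, 102 and 163 TPM in Rag2-/- hosts (log2 fold change -0.61 ± 0.13 (SE), adjusted p = 0.0296), and Dnmt3a, a DNA methyltransferase often mutated in leukemia, had 20.3, 23.8, 21.4 and 23.1 TPM in WT hosts and 15.5, 13.3, 13.7 and 18.5 TPM in Rag2-/- hosts (log2 fold change -0.52 ± 0.11 (SE), adjusted p = 0.0278). In the 8 fits without 1 library, Hnf4a lost its call in 6, Dnmt3a in 5, Mcpt8 in 4 and Hdc in 1.

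The core genes of the leukemia were not among the calls. Of 20 self-renewal genes tested, none was called (median 0.10). Hoxa9 was at 210.1, 208, 202 and 213 TPM in WT hosts and 232, 233, 234 and 196 TPM in Rag2-/- hosts (log2 fold change 0.10 ± 0.06 (SE), adjusted p = 0.334). Meis1 was at 55.4, 55.6, 55.8 and 54.2 TPM in WT hosts and 55.9, 63.3, 60.5 and 62.5 TPM in Rag2-/- hosts (log2 fold change 0.13 ± 0.05 (SE), adjusted p = 0.146). Pbx3 was higher by 0.23 ± 0.05 (SE) on the log2 scale with adjusted p = 0.0296, below the limit on size. Kit, the stem cell factor receptor, was at 114, 99.98, 111 and 114 TPM in WT hosts and 79.8, 67.7, 76.9 and 107 TPM in Rag2-/- hosts (log2 fold change -0.42 ± 0.12 (SE), adjusted p = 0.0696).

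**Figure D5:**
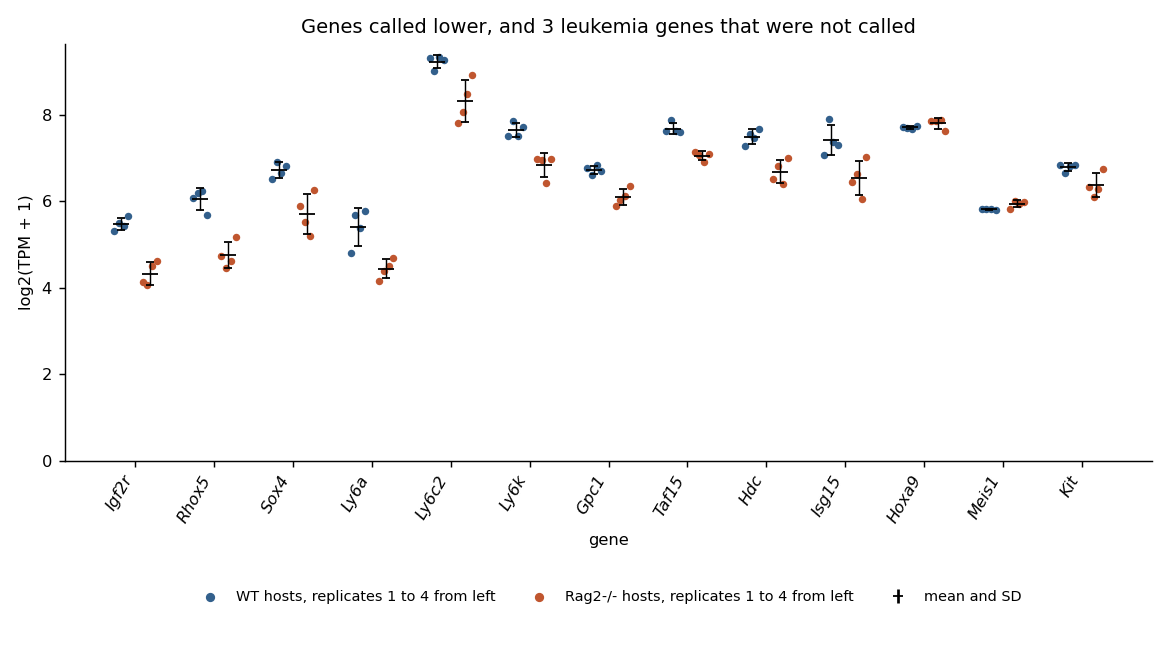
Points give log2(TPM + 1) of each library for 10 genes called lower and for Hoxa9, Meis1 and Kit, which were not called, with the mean and SD of 4 libraries. The Rag2-/- points lie below the WT points in the 10 genes called lower, and the groups overlap in Hoxa9 and Kit.

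Many of the lower genes were processed pseudogenes, copies of mRNAs without introns. They made up 30 of 117 (25.6%), against 13 of 240 higher genes (5.42%) and 8.95% of all genes tested. Gm5518 (-1.39 ± 0.24 (SE), adjusted p = 0.0197), Gm5854 (-1.27), Gm4149 (-1.25), Gm10059 (-1.22), Gm5424 (-1.12), Gm11688 (-1.08), Gm6421 (-1.07) and Gm10240 (-1.07) fell furthest among those of this class without overlap, and all 8 lost their call in at least 3 of 8 fits without 1 library. Reads of such copies can come from their parent genes. Rps16-ps2, the most abundant of the class to be called, was at 716, 747, 607 and 588 TPM in WT hosts and 495, 451, 444 and 411 TPM in Rag2-/- hosts (log2 fold change -0.56 ± 0.09 (SE), adjusted p = 0.0154). Its parent Rps16 was at 1929.6, 2031, 1695 and 1504 TPM in WT hosts and 1449, 1310.5, 1141 and 1241 TPM in Rag2-/- hosts (log2 fold change -0.47 ± 0.10 (SE), adjusted p = 0.0312).

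Genes of the ribosome and the respiratory chain, lists chosen after their values were seen, held few calls. Of 83 cytosolic ribosomal protein genes, 61 had a negative log2 fold change, 1 was called lower and none higher (median -0.09). The called gene was Rpl22l1, at 92.5, 87.3, 70.2 and 60.6 TPM in WT hosts and 58.4, 45.9, 37.8 and 33.6 TPM in Rag2-/- hosts (log2 fold change -0.82 ± 0.18 (SE), adjusted p = 0.0329). Of 79 respiratory chain genes, 56 were negative and 3 called lower (median -0.08). Atp5k, a small subunit of the ATP synthase, was at 168, 161, 153 and 132 TPM in WT hosts and 109.9, 85.1, 58.4 and 55.5 TPM in Rag2-/- hosts (log2 fold change -1.03 ± 0.20 (SE), adjusted p = 0.0235), and Atp5e and Ndufa2 had log2 fold changes of -0.51 and -0.67. Rag2-/- replicates 3 and 4 were the lowest in Atp5k and in Tmsb10, the actin-binding thymosin (log2 fold change -0.73 ± 0.15 (SE), adjusted p = 0.027). In the 8 fits without 1 library, Rpl22l1 and Tmsb10 lost their call in 6 each, Atp5k and Ndufa2 in 5 each and Atp5e in 7, and 0 to 5 of the ribosomal and 0 to 4 of the respiratory chain genes were called lower. None of either list was called with WT replicate 1, or replicate 2 or 3 of either host, left out. Both list medians were negative under quantile normalization (-0.08 and -0.07) and under median-ratio scaling (-0.12 and -0.10).

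Gene length moved with these values. Over protein-coding genes, the median log2 fold change was -0.03 under 750 exon bases, -0.06 at 750 to 1499, -0.01 at 1500 to 2499, -0.00 at 2500 to 3999, 0.02 at 4000 to 5999 and 0.05 at 6000 and more. The shares called lower in these 6 bins were 3.70%, 2.47%, 1.16%, 0.495%, 0.662% and 0.203%. The shares called higher were 8.02%, 2.32%, 1.99%, 1.83%, 1.25% and 1.22%, so that calls in both directions were fewer among long genes. In the longest bin, the median difference from the WT mean was 0.03, 0.02, 0.08 and 0.09 in Rag2-/- replicates 1 to 4. The part of length in the calls was not tested.

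Of the called genes, 7 are small RNA genes, which rest on very few reads. Mir7089 was at 6.34, 5.83, 5.64 and 6.22 TPM in WT hosts and listed at 0 in all Rag2-/- libraries (adjusted p = 0.000223 by limma), and these levels amount to 1 to 1.5 recovered read pairs per WT library. Mir7030 and n-R5s67, called higher, rest on 0 to 2 recovered read pairs in WT libraries and 1 to 6.5 in Rag2-/- libraries. The libraries were made from poly(A)-selected RNA, which does not capture mature microRNAs.

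Lymphocyte genes were measured at a low level. Igkc, the constant region of the immunoglobulin kappa light chain (chr6:70726435-70726966), was at 4.05, 0.745, 18.03 and 14.7 TPM in WT hosts and 0, 0.295, 0 and 0 TPM in Rag2-/- hosts, which is 5, 1, 37.5 and 18.5 recovered read pairs in WT libraries and 0, 0.5, 0 and 0 in Rag2-/- libraries (adjusted p = 0.0433 by limma). Its fold depends on the pseudocount and is not given. The call was lost in 7 of 8 fits without 1 library. Of 268 immunoglobulin genes in the annotation, 87 were above 0 in at least 1 WT library and 41 in at least 1 Rag2-/- library. Of 226 T-cell receptor genes, these counts were 20 and 31, and of all 55401 genes they were 23788 and 25072, with the Rag2-/- libraries the deeper by their median. Ighm, which myeloid leukemias can transcribe, was at 173, 174, 173 and 213 TPM in WT hosts and 135, 141, 174 and 206 TPM in Rag2-/- hosts, with overlap. Of 20 B and plasma cell markers, 8 were tested and Igkc was the only one called.

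More NK cell genes were above 0 in Rag2-/- libraries. Of 15 NK markers, 3 to 5 were above 0 in each WT library and 7 to 13 in each Rag2-/- library, and 7 were listed at 0 in all WT libraries but not in all Rag2-/- libraries, against none the other way round. Over all 55401 genes, 19264 to 20804 were above 0 in WT and 19506 to 21879 in Rag2-/- libraries, and 2737 were at 0 in WT libraries alone and 1453 in Rag2-/- libraries alone. Other lists gave 4 and 0 such genes (T cell), 4 and 1 (erythroid) and 5 and 0 (eosinophil, basophil and mast cell). The part of depth in these counts was not tested. Gzma, the granzyme A protease of cytotoxic cells, was at 0, 0, 0 and 0 TPM in WT hosts and 2.39, 0.624, 1.62 and 1.32 TPM in Rag2-/- hosts. Ncr1, the NKp46 activating receptor, was at 0, 0, 0 and 0 TPM in WT hosts and 0.391, 0.408, 0.531 and 0.108 TPM in Rag2-/- hosts. Il2rb, the IL-2 and IL-15 receptor chain, was at 0.101, 0, 0.119 and 0.197 TPM in WT hosts and 1.22, 0.732, 0.477 and 0.349 TPM in Rag2-/- hosts. The groups did not overlap in these 3 genes, which fell below the 1 TPM limit and were not tested. Nkg7, also expressed by myeloid cells, was the only NK marker tested, at 5.66, 5.20, 6.16 and 6.71 TPM in WT hosts and 4.94, 2.06, 1.79 and 5.19 TPM in Rag2-/- hosts (log2 fold change -0.72 ± 0.27 (SE), adjusted p = 0.141).

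Macrophage markers rose in part. Of 15 tested, 3 were called higher and none lower (median 0.52), with none called when replicate 2 of either host or Rag2-/- replicate 3 was left out, and their summed level was 494 to 548 TPM in WT and 633 to 781 TPM in Rag2-/- libraries. C1qc, a complement subunit made by macrophages, was at 0.446, 0.821, 2.12 and 1.09 TPM in WT hosts and 5.92, 2.76, 4.23 and 3.36 TPM in Rag2-/- hosts (log2 fold change 1.28 ± 0.28 (SE), adjusted p = 0.033), and C1qa and C1qb, its partners, at 0 to 3.66 and 0.991 to 4.47 TPM in WT and 4.53 to 10.3 and 5.43 to 12.2 TPM in Rag2-/- hosts. Cd68 and Hmox1, a lysosomal protein and the heme-degrading enzyme, were higher by 0.55 ± 0.11 (SE) (adjusted p = 0.0235) and 0.52 ± 0.08 (SE) (adjusted p = 0.0157). Timd4, a marker of resident macrophages, was at most 0.277 TPM in any library. Cd74, the MHC class II invariant chain (log2 fold change 1.34 ± 0.32 (SE), adjusted p = 0.0414), and Retnla, an alternative-activation marker listed at 0 in all WT libraries and at 3.35, 3.67, 2.73 and 0.278 TPM in Rag2-/- hosts, were also called higher. These 5 calls were each lost in at least 4 of the 8 fits without 1 library. None of the T-cell, erythroid, megakaryocyte, dendritic or endothelial and stromal lists held a call. The part of host cells in the differences between the groups was not tested.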

How the data were processed

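RNA of GFP+ MLL-AF9 cells from WT and Rag2-/- hosts (4 libraries each) was read from the table the authors deposited. Per the methods, poly(A)-selected RNA was sequenced from both ends, aligned to mm10 with HISAT2 on Galaxy and counted per gene, and the authors converted raw counts to TPM, the deposited unit. The counting tool, annotation and use of strand are not given in the sources used here, so overlapping and antisense genes cannot be told apart. Gene symbols, exon lengths and coordinates came from GENCODE M21 (GRCm38), which paired 55141 of the 55401 genes. As mitochondrial genes are listed at 0 throughout, they were not analysed here.

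A linear model per gene was fitted to log2(TPM + 1) of the 8 libraries in limma 3.58.1 (R 4.3.3), with eBayes moderation and a mean-variance trend. The pseudocount of 1 understates changes of low genes. Tests were run where the mean level reached 1 TPM, p-values were adjusted by Benjamini-Hochberg, and calls needed an adjusted p below 0.05 with a log2 fold change beyond 0.5, as in the study's methods. Nothing in the labels ties libraries to litters or days, and p-values measure the spread between these libraries. The NSG libraries entered only 1 alternative.

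Read pairs were recovered from low TPM values, which times exon bases come in steps. Between 98.7% and 98.9% of values under 20 steps were whole multiples of a halved step within 0.05, and 64.0% to 66.4% of whole steps, and the pairs are therefore estimates, used for a limma-voom fit added after seeing the data. Intervals from such counts would cover counting error only and are not given. Python 3.11.15, pandas 2.3.3, numpy 2.4.6 and matplotlib 3.10.9 were used besides, and the fit was tested on simulated data.

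The comparison, the 39 gene lists (751 genes, 741 matched) and the tests were chosen with earlier results of these data known. The lists share genes. Genes were named as the 15 largest and 15 smallest log2 fold changes among called genes without overlap, the 10 most abundant called genes, and genes of the lists, a choice of which is printed. Other genes are named after their values were seen. As alternatives, the pseudocount was 0.1, low values were filtered otherwise, scaling was by quantiles or median ratios, the trend was dropped, all 12 libraries or a replicate block entered, the fold limit was dropped, and libraries were left out in turn.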

Additional observations from a re-analysis of the deposited data

Results flagged for a closer look

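Within a group of 4, a library was marked where its gap to the nearest other library exceeded 0.829 of the group's range on the log2(TPM + 1) scale. Of 304 such groups of named genes and list scores (the mean over a list's genes), 24 were marked, and chance marks about 1 in 20, or 15.2 here. No cause was tested.

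Rag2-/- replicate 4 was the library most often marked. It lay lowest of its group in Retnlg (gap 0.928 of the range), S100a8 (0.872), Mmp8 (0.888), Fpr1 (0.881), Cxcr2 (0.848), Hoxa9 (0.937) and the score of secondary and tertiary granule genes (0.909), and highest in Elane (0.905) and the score of primary granule genes (0.848). It was the lowest Rag2-/- library in 136 of the 240 genes called higher, and the deepest of the 8. Other libraries were as often at the edge of their group in these 240 genes. Rag2-/- replicate 3 was the highest of its group in 144, and WT replicate 2 the lowest of its group in 142. No such count was made over all genes tested. In Hoxa9 the level of Rag2-/- replicate 4 was 196 TPM against 232 to 234 TPM in the other Rag2-/- libraries.

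WT replicate 2 lay highest in Gm11688 (0.893) and Taf15 (0.958), and lowest in Cd68 (0.962) and in the scores of cholesterol synthesis (0.924), lysosome (0.836) and megakaryocyte genes (0.923). WT replicate 1 lay highest in Gm5483 (0.857) and in the scores of lipid mediators (0.914) and chemokines (0.837). WT replicate 3 was the only WT library above 0 in Mir7030 (1.000), and WT replicate 4 lay lowest in Ifitm6 (0.847).

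Among the other Rag2-/- libraries, replicate 2 was the only one above 0 in Igkc (1.000), replicate 3 lay lowest in Ly6k (0.961), and replicate 1 lay highest in Sqle (0.934). The score of sex-linked genes was highest in Rag2-/- replicate 3 (0.864), where Xist, the RNA of the inactive X chromosome, was at 15.5 TPM against 0.652 to 3.02 TPM in WT libraries. Ddx3y, Eif2s3y, Kdm5d and Uty, genes of the Y chromosome, were listed at 0 in all 8 libraries.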

How the results depend on the processing

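The counts of 240 genes higher and 117 lower moved by over 1.5 times under several settings. Without a filter on low values, 115 genes were higher and 42 lower, without the trend 141 and 53, and with no limit on the fold change 619 and 385. With all 12 libraries in 1 fit the counts were 175 and 50, of which only the second moved by over 1.5 times. With the replicate block they were 158 and 93, of which only the first did. Leaving out 1 library gave 70 to 250 higher and 26 to 143 lower, with the fewest without WT replicate 2 and the most without Rag2-/- replicate 4. A limma-voom fit on recovered read pairs, added after seeing the data, gave 265 and 201. Of the 240 and 117, 195 and 108 were called there too. The remaining settings (pseudocount, a filter in every library, quantile and median-ratio scaling) stayed within 1.5 times, with 217 to 244 higher and 122 to 151 lower. The 357 genes kept their sign in every alternative that tested them. Where the groups do not overlap, leaving out 1 library could not change the sign.

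Equal replicate numbers did not pair the libraries, as the deviations of same-numbered libraries correlated at 0.004, 0.007, -0.01 and 0.032. With the replicate block, the 158 higher and 93 lower genes shared 146 and 79 with the calls, and 1 of the 4 WT libraries correlated best with its own number.

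Over 112 named genes and 17 alternatives, 1497 of 1889 values stayed on their side of the limits, 381 lost a call and 11 gained one. Medians of gene lists moved by less than the spread between replicates in 633 of 663 cases. The cause of lost calls was not tested, except that fits without a library hold fewer samples. Depth limits genes under about 1 TPM, where 3 read pairs on 1 kb are worth 0.499 to 1.29 TPM.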
